A study of Mus musculus with 4 samples.

Results

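Mycn, Myc, Mycl, Max, Lin28a, Lin28b, Hmga2, Igf2bp1, Igf2bp2 and Igf2bp3 encode the Myc transcription factors with their partner and the Lin28-linked genes that mark the progenitor stage of many embryonic tissues. The 10 genes were chosen by symbol, and all 10 were found among the 52636 gene identifiers counted in each library. The RNA came from mouse kidney cells sorted by FACS, which selects cells by their fluorescence. The first group was labelled Brg1-cKO, where cKO commonly stands for conditional knockout, and the second group was labelled control. Brg1 is the protein of Smarca4, an ATPase that moves nucleosomes as part of SWI/SNF chromatin complexes. There were 2 libraries per group, and each was made from 3000 cells by random priming with a strand-specific kit and read as single ends of 75 bp. The strain, age and sex of the animals, the sorting marker, the Cre driver, the deleted allele and any allele that the controls carry are not given in the sources used here. The labels do not say whether the replicates of a group are separate animals, so p-values measure the spread between these libraries only, which may be technical.

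Myc, N-Myc and L-Myc bind DNA as dimers with Max at the E-box CACGTG and raise the transcription of genes for ribosome production, metabolism and cell division. In the developing kidney Mycn is known for expression in nephron progenitors and their early derivatives, and its reduced dosage gives small kidneys. Lin28a and Lin28b bind the precursors of the let-7 microRNAs and block their maturation. In mouse kidney, Lin28b and let-7 act on the time at which nephron progenitors are used up. Hmga2, a chromatin protein of embryonic cells, and Igf2bp1, Igf2bp2 and Igf2bp3, RNA-binding proteins that stabilise and localise mRNAs in fetal tissue, are well-known let-7 targets.

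Counts on genes totalled 14645665 and 10922272 in Brg1-cKO and 35411905 and 37999342 in control, and a count of 3, the upper limit that a count of 0 allows, is worth 0.210 and 0.280 CPM in Brg1-cKO cells against 0.0838 and 0.0778 CPM in control cells. Intervals and floors cover counting error only, since the reads carry no molecular identifiers. Reads outside counted genes made up 49.5% and 57.2% of uniquely aligned reads in Brg1-cKO against 16.5% and 15.4% in control. The 2 Brg1-cKO libraries also stood far apart from each other. Among genes at 10 CPM or more, the median difference between libraries of a group was 1.59-fold in Brg1-cKO and 1.07-fold in control. Of the 18172 genes tested, 1527 had no count in either Brg1-cKO library, against 52 with none in either control. Xist, which is expressed from the inactive X chromosome, was at 836 and 1205 CPM in Brg1-cKO cells against 244 and 217 CPM in control cells. The Y-linked Ddx3y was at 1.05 and 3.27 CPM in Brg1-cKO cells against 76.0 and 78.8 CPM in control cells, so the sex of the cells and the genotype cannot be told apart. Smarca4, the targeted gene, was at 760 and 691 CPM in Brg1-cKO cells and 898 and 937 CPM in control cells, a log2 fold change of -0.34 (SE 0.09; adjusted p = 0.167 with edgeR's quasi-likelihood test). Both Brg1-cKO libraries lay below both controls, as they did for 34.5% of all tested genes. Counts summed over the gene also do not separate a deleted exon from the others, so the lower Smarca4 level is only a weak check of the labels.

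The link from Lin28 to Hmga2 and the Igf2bp genes runs through the let-7 seed, bases 2 to 8 of the microRNA, which pairs with the target. Of 11 mature let-7 family names in the RefSeq table (GRCm38.p6), 10 share the seed GAGGUAG, and let-7j has GAGGUAU. Members of the shared-seed group differ mainly in the bases after the seed. The lines give 4 of them and let-7j, with the seed in capitals.
mmu-let-7a-5p: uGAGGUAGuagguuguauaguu
mmu-let-7d-5p: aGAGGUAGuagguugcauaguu
mmu-let-7i-5p: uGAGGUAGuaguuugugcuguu
mmu-miR-98-5p: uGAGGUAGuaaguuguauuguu
mmu-let-7j: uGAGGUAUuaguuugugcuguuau
The libraries were made from mRNA and do not measure mature microRNAs. Of 12 let-7 genes in the files, 9 had no count in any library and 0 passed the filter on low counts.

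The seed is matched in a transcript by CTACCTC, and CTACCTCA adds the A that favours binding. In the longest annotated 3' UTR of each gene (GENCODE M21, mm10), the shorter string was found in 6 of the 10 genes, at 16 positions in all, of which 9 had the A. Lin28b, Hmga2 and Igf2bp1 had 4 matches each, Lin28a had 2, and Igf2bp2 and Igf2bp3 had 1 each. Mycn, Myc, Mycl and Max had none, which says only that these letters are absent from the UTRs searched. Over 21027 genes, 9.02% held the shorter string and 3.06% the longer one. Among genes with a 3' UTR within 20% of the same length, at least as many matches were found in 0.134% for Hmga2, 0.236% for Lin28b, 0.355% for Igf2bp1 and 2.10% for Lin28a. The share was 12.05% for Igf2bp2 and 13.3% for Igf2bp3, whose single match was thus not rare for their length. The 6 genes are known let-7 targets, so their matches were known beforehand and are shown as the sites behind that link. One match per gene follows, with the longer string in capitals, on the transcript strand.
Lin28a: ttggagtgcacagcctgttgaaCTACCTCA
Lin28b: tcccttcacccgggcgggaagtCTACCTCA
Hmga2: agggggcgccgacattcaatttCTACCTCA
Igf2bp1: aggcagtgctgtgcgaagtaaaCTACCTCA
Igf2bp2: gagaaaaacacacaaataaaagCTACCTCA
Igf2bp3: ttaaacgtgcatttttactcaaCTACCTCA
All 6 lie in 3' UTRs of genes on the minus strand of mm10. The Lin28a site is chr4:134005189-134005218 and the Lin28b site chr10:45381022-45381051. The Hmga2 site is chr10:120364224-120364253 and the Igf2bp1 site chr11:95961778-95961807. The Igf2bp2 site is chr16:22059473-22059502 and the Igf2bp3 site chr6:49086787-49086816. The first match begins at base 36 of the UTR in Lin28b and at base 58 in Hmga2, and the next begins at base 2410 in Lin28b and at base 1295 in Hmga2.

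**Figure D1:**
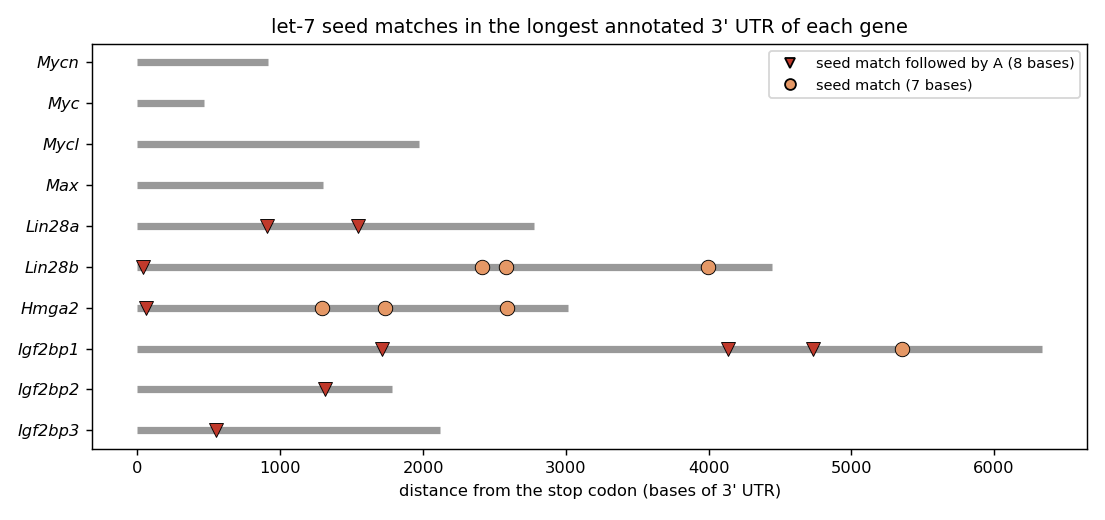
Positions of let-7 seed matches along the longest annotated 3' UTR of each of the 10 genes, in bases from the stop codon. Bars give the UTR length, triangles matches to CTACCTCA and circles matches to CTACCTC. Hmga2, Lin28b and Igf2bp1 have 4 matches each, and the 4 genes of the Myc and Max group have none.

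Matches to the E-box CACGTG, which reads the same on both strands, were looked for in the RefSeq promoter windows of 300 bases (250 before to 50 after the start; GRCm38.p6), because Myc and Max dimers bind this string. Entries were found for 8 of the 10 genes, and 3 of these held it: Max and Lin28b at 1 position each and Igf2bp3 at 2. Over all 27025 genes with an entry, 8.09% held it. The windows around the 4 matches are given with the E-box in capitals, in the direction of transcription.
Max: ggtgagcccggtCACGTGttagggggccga
Lin28b: aattgacagagtCACGTGtgctcaggggcc
Igf2bp3 upstream match: gctgggattcctCACGTGagacgttgattt
Igf2bp3 downstream match: ttgtagtttgaaCACGTGgctcattcaaaa
They lie on the minus strand of GRCm38.p6, the Max window at chr12:76962234-76962263 and the Lin28b window at chr10:45470233-45470262. The Igf2bp3 windows are chr6:49214960-49214989 and chr6:49214932-49214961. A match is a description of the sequence and not evidence of binding. For the 3 genes with a match, the log2 fold change, Brg1-cKO over control, was -0.03 for Max, -0.56 for Lin28b and -0.28 for Igf2bp3, and none passed the test.

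All 10 are protein-coding genes, given here by their positions on mm10. Of the Myc genes, Mycn lies on chromosome 12 from 12936093 to 12941914 (minus strand), Myc on chromosome 15 from 61985391 to 61990374 (plus strand) and Mycl on chromosome 4 from 122995652 to 123002485 (plus strand). Max lies on chromosome 12 from 76937269 to 76962201, and like the 6 genes that follow it is on the minus strand. Lin28a lies on chromosome 4 from 134003330 to 134018841, and Lin28b and Hmga2 on chromosome 10 from 45376620 to 45486395 and from 120361275 to 120476469. Igf2bp1 lies on chromosome 11 from 95957163 to 96005940, Igf2bp2 on chromosome 16 from 22059009 to 22163299 and Igf2bp3 on chromosome 6 from 49085223 to 49214957.

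Set by level per length (CPM per kilobase of merged exons), the kidney cells held much Mycn, Hmga2, Igf2bp1 and Igf2bp2, and little Lin28b and Lin28a. In Brg1-cKO Mycn had the highest mean level at 58.6, followed by Igf2bp2 at 50.9, Hmga2 at 49.4 and Igf2bp1 at 37.2. The next were Max at 15.2, Igf2bp3 at 14.4, Myc at 13.6 and Mycl at 8.85, and then came Lin28b at 0.998 and Lin28a at 0. In that order Igf2bp2 and Hmga2 overlapped, as did each neighbouring pair from Max to Mycl. In control the order began with Hmga2 at 61.8, Igf2bp2 at 42.3, Igf2bp1 at 30.3 and Mycn at 29.8, of which Igf2bp1 and Mycn overlapped. Myc at 24.1, Igf2bp3 at 17.5, Max at 15.5, Mycl at 5.20, Lin28b at 1.47 and Lin28a at 0.279 followed without overlap. Mycn thus had rank 1 in Brg1-cKO and rank 4 in control. Fewer cells of a type and less RNA per cell cannot be told apart in these bulk samples, here and in every value that follows.

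**Figure D2:**
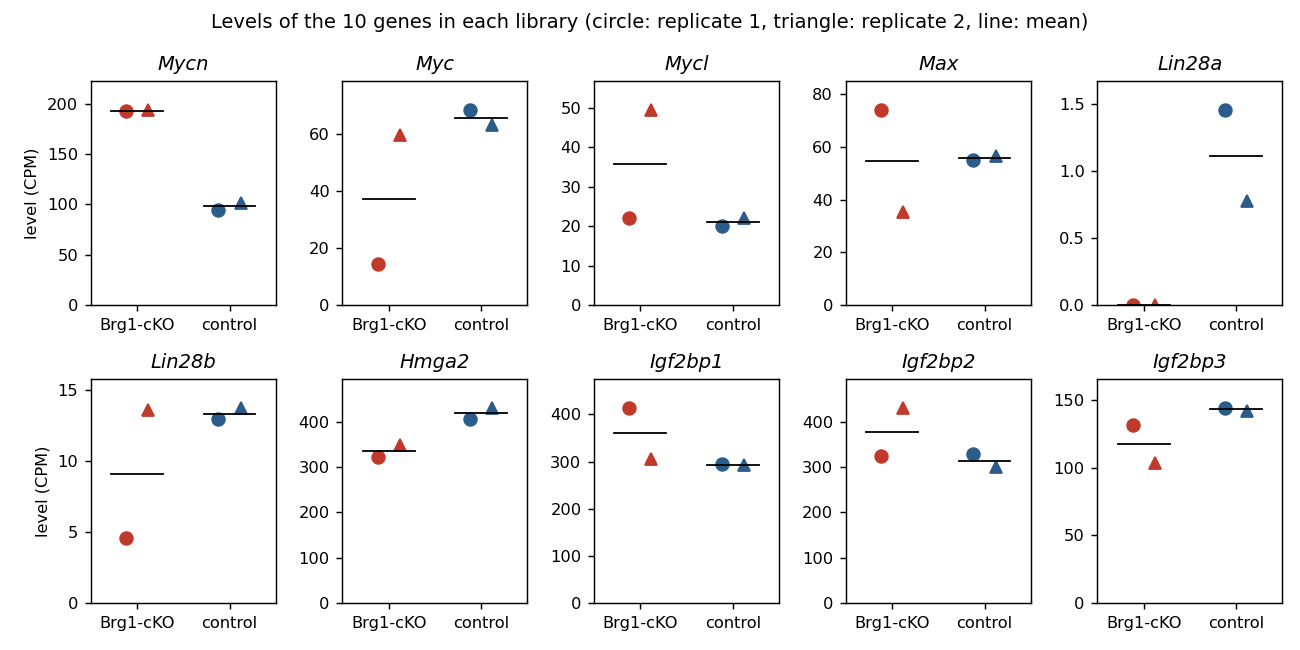
Level of each gene in CPM in every library, on a linear axis from 0 that differs between panels. Circles are replicate 1, triangles replicate 2 and lines the group means. The 2 Brg1-cKO libraries lie almost on each other for Mycn and far apart for Myc, Mycl, Max and Lin28b, while the controls lie close together in every panel but that of Lin28a.

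Of the 10 genes, 10 passed the filter on low counts and 0 passed the threshold of 0.05 on the adjusted p (edgeR's quasi-likelihood test with Benjamini-Hochberg adjustment). Of all 18172 tested genes 0% passed, with 0.166 as the smallest adjusted p. Without adjustment, 1 gene had a p under 0.05 and was higher in Brg1-cKO (Mycn), against 5.44% of all tested genes, and 2 did so and were lower (Lin28a and Hmga2), against 12.9%. Of these, Lin28a entered the test only through its counts in control. Both Brg1-cKO libraries lay above both controls for 3 genes (Mycn, Mycl and Igf2bp1), against 17.5% of all tested genes. Both lay below for 4 genes (Myc, Lin28a, Hmga2 and Igf2bp3), against 34.5%, and the groups overlapped for Max, Lin28b and Igf2bp2. The median log2 fold change of the 10 genes was -0.16, beside -0.06 over all tested genes. An exact permutation test of 2 against 2 libraries cannot go below a two-sided p of 0.333 for a single gene.

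Mycn, which encodes N-Myc, the Myc protein of nephron progenitors, was at 193 and 194 CPM in Brg1-cKO cells, against 94.6 and 102 CPM in control cells. Both Brg1-cKO libraries were high, with no overlap, and their ratio of 0.996 (95% interval 0.940 to 1.05 from the counts) left no difference between them that the depth could show. The means were 193.1 ± 0.583 CPM in Brg1-cKO cells and 98.1 ± 4.91 CPM in control cells (SD, n = 2 each), a 1.97-fold higher level. The log2 fold change was 0.98 (SE 0.15), with adjusted p = 0.166 by edgeR's quasi-likelihood test, rank 96 of 18172 by p. It ran from 0.89 to 1.03 over 15 alternative settings. With all 4 libraries it passed the adjusted threshold only with DESeq2 (adjusted p = 2.3e-09), which called 6.83% of all genes higher. Without Brg1-cKO replicate 1 or without replicate 2 the log2 fold change was 0.95.

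Myc, the proto-oncogene that is switched on rapidly by growth signals, was at 14.5 and 59.5 CPM in Brg1-cKO cells, against 68.1 and 63.0 CPM in control cells. Only Brg1-cKO replicate 1 was far below the controls, and its level was 0.243 of that of replicate 2 (95% interval 0.207 to 0.285). The log2 fold change of -0.83 (SE 0.74; adjusted p = 0.667 with edgeR) became -0.17 without replicate 1 and -2.20 without replicate 2. Mycl, which encodes L-Myc, was at 22.1 and 49.4 CPM in Brg1-cKO cells, against 19.98 and 22.04 CPM in control cells. Here replicate 2 was high and replicate 1 stood just above the controls. Its log2 fold change was 0.77 (SE 0.52; adjusted p = 0.570 with edgeR), and it was 1.21 without replicate 1 and 0.05 without replicate 2. Max, the partner that all 3 Myc proteins need to bind DNA, was at 73.8 and 35.4 CPM in Brg1-cKO cells, one on each side of 54.9 and 56.4 CPM in control cells. Its log2 fold change of -0.03 (SE 0.43; adjusted p = 0.985 with edgeR) had no stable sign, with -0.68 without replicate 1, 0.39 without replicate 2 and 0.028 with RLE scaling.

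As shares of the summed per-length level of the 3 Myc genes, Mycn made up 84.4% and 63.2% in Brg1-cKO against 48.9% and 51.8% in control. Myc made up 7.68% and 23.6% in Brg1-cKO against 42.7% and 38.99% in control, and Mycl 7.89% and 13.2% in Brg1-cKO against 8.43% and 9.18% in control. Mycn had the larger share of the pair in all 4 libraries, and the gap between Mycn and Myc was wider in both Brg1-cKO libraries than in either control. The sum of the 3 genes was 69.3 and 92.9 CPM per kilobase in Brg1-cKO against 58.7 and 59.5 in control.

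**Figure D3:**
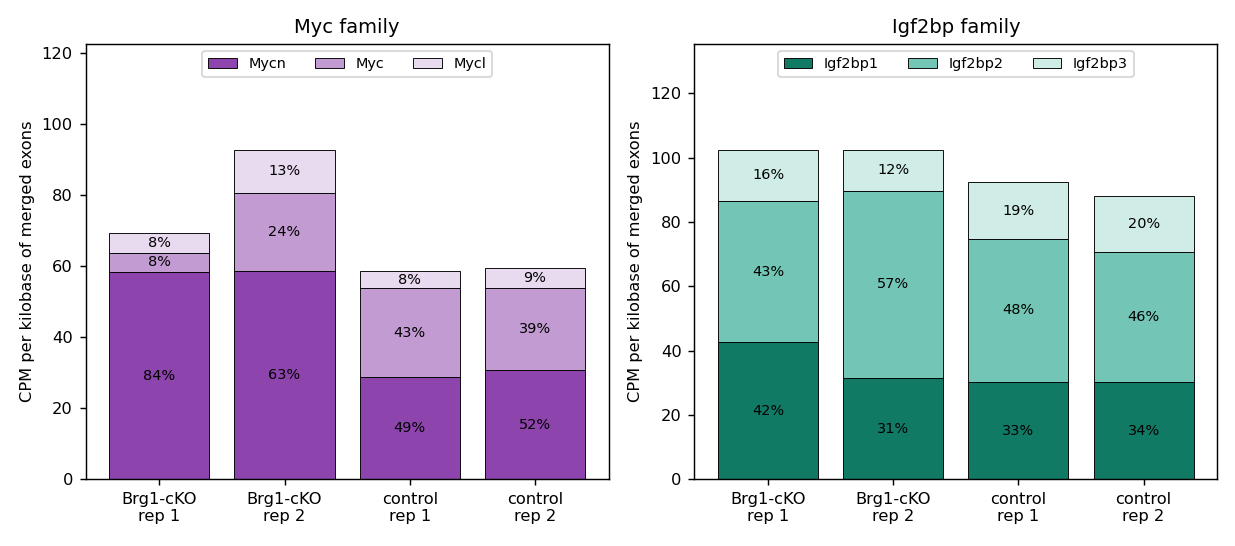
Summed level of the 3 Myc genes (left) and the 3 Igf2bp genes (right) in CPM per kilobase of merged exons in each library, stacked by gene, with the share of each gene printed in its segment as a whole percent. Mycn holds 84.4% and 63.2% of the Myc sum in Brg1-cKO against 48.9% and 51.8% in control. The Igf2bp sum is 102.5 and 102.4 in Brg1-cKO against 92.3 and 88.0 in control.

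Of 9 other genes of the Max and Mlx network, which holds repressors that compete with Myc for Max, 0 passed the adjusted test, 4 had a higher and 5 a lower fitted level, and the median log2 fold change was -0.06. Mnt, a repressor that takes Max away from Myc, had the smallest p of them. It was at 47.2 and 53.1 CPM in Brg1-cKO cells, against 92.0 and 90.2 CPM in control cells, a log2 fold change of -0.86 (SE 0.21; adjusted p = 0.166 with edgeR). Its groups did not overlap. Mxd4, another Max-binding repressor, was at 94.97 and 124 CPM in Brg1-cKO cells against 123 and 128 CPM in control cells, and its groups overlapped. Among the 7 tested genes that set the stability of Myc proteins, 0 passed, 4 were higher and 3 lower, with a median of 0.11. Fbxw7, the ubiquitin ligase subunit that marks phosphorylated Myc for breakdown, was at 45.8 and 66.4 CPM in Brg1-cKO cells against 37.3 and 33.0 CPM in control cells (log2 fold change 0.67, SE 0.32). Gsk3b, a kinase that creates the site Fbxw7 binds, was at 143 and 193 CPM in Brg1-cKO cells against 262 and 253 CPM in control cells (log2 fold change -0.62, SE 0.19). Skp2, another ligase subunit that acts on Myc, had no count in any of the 4 libraries. The annotation used for counting is not given, so this is not read as absent RNA.

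Known targets of Myc did not share one direction. Of 18 tested, 0 passed the adjusted test, 6 were higher and 12 lower, with a median log2 fold change of -0.11 beside -0.06 over all genes. Npm1, a nucleolar chaperone of ribosome assembly, was at 1079 and 911 CPM in Brg1-cKO cells, against 1193 and 1205 CPM in control cells (log2 fold change -0.27, SE 0.11). Nme1, a nucleoside diphosphate kinase, was at 78.0 and 89.9 CPM in Brg1-cKO cells, against 61.1 and 57.9 CPM in control cells (log2 fold change 0.50, SE 0.21). Neither overlapped between groups, and they lay in opposite directions. Genes of the dividing cell were evenly split, with 4 of 8 higher, 4 lower, 0 past the test and a median of 0.01. Cdk1, the mitotic kinase, was at 114 and 85.0 CPM in Brg1-cKO cells against 136 and 145 CPM in control cells, and its cyclin partner Ccnb1 was at 160 and 92.9 CPM in Brg1-cKO cells against 88.4 and 94.6 CPM in control cells.

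Lin28a, which keeps pluripotent and early embryonic cells from making let-7, had 0 counts in both Brg1-cKO libraries, against 52 and 30 counts in control, or 1.45 and 0.778 CPM. The mean control level was 9.30-fold above the limit of 3 counts over the Brg1-cKO group (log2 fold change at that limit -3.22). That limit covers counting error in Brg1-cKO only, and the control libraries differed 1.87-fold (95% interval 1.17 to 3.03 from the counts). Lin28a passed the filter on low counts only through its control libraries, so its p is not read as support (adjusted p = 0.166 with edgeR's quasi-likelihood test). The control level was low, and scarce transcripts were missing more often from the Brg1-cKO libraries in general, with 1527 tested genes at 0 there against 52 in control. Their part in the Lin28a value was not tested. Lin28b, the paralogue that is expressed in the nephrogenic kidney, was at 4.54 and 13.5 CPM in Brg1-cKO cells, against 12.9 and 13.7 CPM in control cells. Replicate 2 lay between the controls, and only replicate 1 was low, at 0.335 of replicate 2 (95% interval 0.246 to 0.452). The log2 fold change of -0.56 (SE 0.84; adjusted p = 0.810 with edgeR) was -0.0034 without replicate 1 and -1.57 without replicate 2.

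Of 11 tested genes that make, tail or use let-7, 0 passed the adjusted test, 6 were higher and 5 lower, with a median log2 fold change of 0.04. Ago1, an Argonaute protein that carries microRNAs to their targets, was at 266 and 242 CPM in Brg1-cKO cells, against 151 and 155 CPM in control cells. That was a log2 fold change of 0.73 (SE 0.13; adjusted p = 0.166 with edgeR), with no overlap. Ago2, the Argonaute that can also cut RNA, was at 208 and 227 CPM in Brg1-cKO cells, against 263 and 263 CPM in control cells, a log2 fold change of -0.28 (SE 0.12; adjusted p = 0.358 with edgeR). The values of these 2 Argonaute genes lay in opposite directions. Dgcr8, the partner of Drosha, had no count in any of the 4 libraries, which for the same reason as with Skp2 is not read as absent RNA.

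Hmga2, which binds AT-rich DNA and maintains self-renewal in fetal stem cells, was at 321 and 348 CPM in Brg1-cKO cells, against 406 and 430.5 CPM in control cells. Both Brg1-cKO libraries were lower, with no overlap and a ratio of 0.923 between them. The means were 334.6 ± 18.9 CPM in Brg1-cKO cells and 418.5 ± 17.0 CPM in control cells (SD, n = 2 each), a level 0.799 of control. The log2 fold change was -0.32 (SE 0.11), and the adjusted p was 0.234 with edgeR's quasi-likelihood test. It kept its sign in all 15 alternative settings, from -0.40 to -0.27. Hmga2 shares 140 exon bases (2.07%) with 1700006J14Rik, an antisense transcript. That transcript was at 3.63 and 47.0 CPM in Brg1-cKO cells, against 9.95 and 8.71 CPM in control cells, and did not follow Hmga2.

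Among 13 other tested let-7 targets, 0 passed the adjusted test, 7 were higher and 6 lower, with a median log2 fold change of 0.11. Ccnd2, a cyclin of the G1 phase, was at 230 and 325 CPM in Brg1-cKO cells, against 505 and 530 CPM in control cells (log2 fold change -0.90, SE 0.20; adjusted p = 0.166 with edgeR). Arid3a, a DNA-binding protein, was at 100.2 and 128 CPM in Brg1-cKO cells, against 76.9 and 73.3 CPM in control cells (log2 fold change 0.60, SE 0.21; adjusted p = 0.266 with edgeR). Of the tested genes, 14295 had a 3' UTR that was searched. Their median log2 fold change was -0.01 for 1524 with at least 1 CTACCTC, -0.01 for 191 with at least 2, and -0.05 for 12771 with none. At a mean of 10 CPM or more, it was 0.06 with at least 1 and 0.03 with none. UTR length was not matched between these sets (median 2340.5 bases with at least 1, 1091 with none). These log2 fold changes describe the libraries and were not tested.

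The 3 Igf2bp genes were all well expressed, and none passed the test. Igf2bp1, which protects Myc and other mRNAs in the cytoplasm, was at 413.6 and 306 CPM in Brg1-cKO cells, against 294 and 292 CPM in control cells. Replicate 1 was high, replicate 2 was slightly above the controls, and the log2 fold change was 0.30 (SE 0.18; adjusted p = 0.527 with edgeR). Igf2bp2, linked to metabolism and kept in some adult tissues, was at 323 and 430 CPM in Brg1-cKO cells, against 328 and 299 CPM in control cells. Here the groups overlapped, and the log2 fold change was 0.27 (SE 0.18; adjusted p = 0.569 with edgeR). Igf2bp3, the most strictly fetal of the family, was at 132 and 103 CPM in Brg1-cKO cells, against 144 and 142 CPM in control cells. Both Brg1-cKO libraries were lower, with a log2 fold change of -0.28 (SE 0.19; adjusted p = 0.564 with edgeR). Igf2bp3 shares 1529 exon bases (18.7%) with Malsu1 on the other strand, which was at 19.6 and 15.9 CPM in Brg1-cKO cells against 16.2 and 11.8 CPM in control cells. Whether the counting used strand is not stated, so reads in the shared part are uncertain for both genes.

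Summed per length, the 3 Igf2bp genes were at 102.5 and 102.4 CPM per kilobase in Brg1-cKO, against 92.3 and 88.0 in control. Igf2bp1 made up 41.7% and 30.9% of the sum in Brg1-cKO against 32.9% and 34.3% in control, and Igf2bp2 42.6% and 56.7% in Brg1-cKO against 48.0% and 45.9% in control. Igf2bp3 had the smallest share in every library, 15.7% and 12.4% in Brg1-cKO against 19.1% and 19.8% in control. The 2 Brg1-cKO libraries differed in which of Igf2bp1 and Igf2bp2 took more, while their sums were close.

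Partners of the Igf2bp proteins in RNA granules were lower in 8 of 9 genes by fitted value, against 9626 of all 18172 tested genes. Both Brg1-cKO libraries lay below both controls for 4 of the 9, against 34.5% of all tested genes, and the groups overlapped for 5. Of the 9, 0 passed the adjusted test, and their median log2 fold change was -0.21 beside -0.06 over all genes. Dhx9, an RNA helicase, was at 500.1 and 585 CPM in Brg1-cKO cells against 696 and 686 CPM in control cells (log2 fold change -0.35, SE 0.11). Pabpc1, the cytoplasmic poly(A)-binding protein, was at 1282 and 1454 CPM in Brg1-cKO cells against 1607 and 1557 CPM in control cells (log2 fold change -0.21, SE 0.09). Both lay below the controls in both libraries. Of 6 genes of fetal growth, 5 were lower and 1 higher, with 0 past the test and a median of -0.25. Igf2, the fetal growth factor whose mRNA gave the Igf2bp family its name, was at 1910 and 2121 CPM in Brg1-cKO cells, against 2610 and 2505 CPM in control cells (log2 fold change -0.34, SE 0.08; adjusted p = 0.166 with edgeR). Peg3, an imprinted zinc-finger gene, was at 997 and 1080 CPM in Brg1-cKO cells, against 1333 and 1356 CPM in control cells (log2 fold change -0.37, SE 0.08; adjusted p = 0.166 with edgeR).

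**Figure D4:**
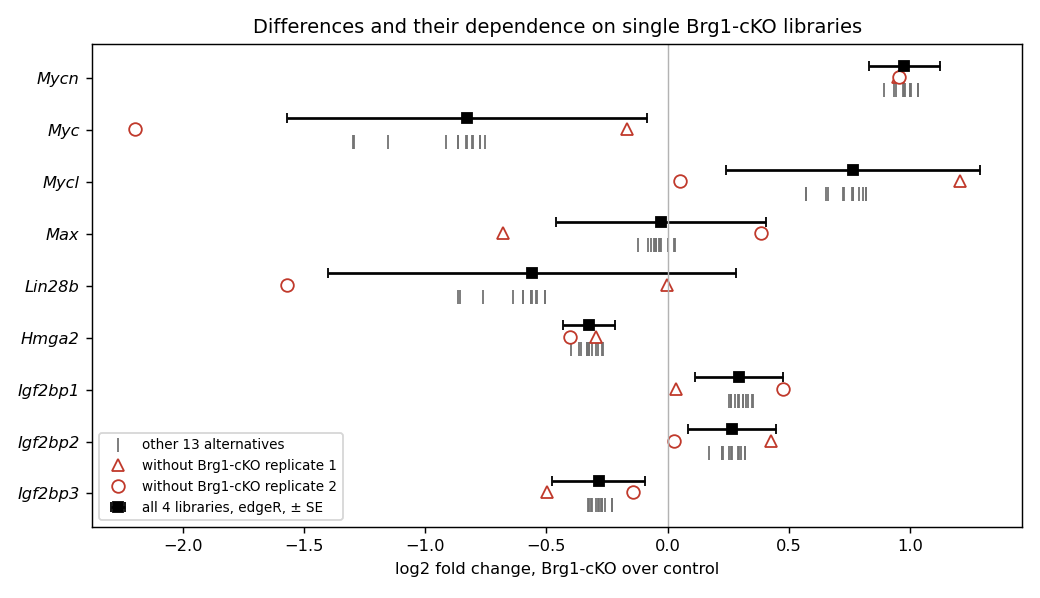
Log2 fold change of each gene, Brg1-cKO over control, with all 4 libraries (squares, with the SE), without Brg1-cKO replicate 1 (open triangles, the remaining replicate 2), without Brg1-cKO replicate 2 (open circles, the remaining replicate 1) and under the other 13 alternatives (ticks). Lin28a is left out because it had no count in Brg1-cKO. The symbols of the 2 single-library fits lie together for Mycn (0.95 and 0.95), close for Hmga2 (-0.29 and -0.40) and far apart for Myc, Mycl, Max and Lin28b.

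With a single Brg1-cKO library kept, the fit assumed that library to vary like the controls. In each of the 2 fits 7 of the 10 genes passed, 3 higher and 4 lower, but these were not the same genes. The 2 sets shared only Mycn, Lin28a, Hmga2 and Max, and Max had opposite directions in them. Of all tested genes 55.5% passed without replicate 1 (24.6% higher and 30.9% lower) and 60.6% without replicate 2 (23.9% higher and 36.6% lower), so these counts stand against a very high background. Mycn had a log2 fold change of 0.95 in both fits, and Hmga2 had -0.29 without replicate 1 and -0.40 without replicate 2. Max had -0.68 and 0.39. Lin28a, one of the lower genes in both, entered only through its control counts, so its direction there is not read as support. The 2 fits share their controls and are not independent. Igf2bp1 had a log2 fold change of 0.03 without replicate 1 and 0.48 without replicate 2, Igf2bp2 had 0.43 and 0.02, and Igf2bp3 had -0.50 and -0.14. The difference between the 2 Brg1-cKO libraries was thus larger than that between the groups for Myc, Mycl, Max, Lin28b, Igf2bp1, Igf2bp2 and Igf2bp3, and smaller for Mycn and Hmga2. For Lin28a, at 0 in both Brg1-cKO libraries, it could not be measured.

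The genes whose centred log2 CPM lay closest to that of Mycn over the 4 libraries, among 9830 named genes at a mean of 10 CPM or more, were Mical1 (distance 0.0302), Usp35 (0.0333) and Znfx1 (0.0495). Mical1, an oxidoreductase that takes actin filaments apart, was at 76.5 and 77.5 CPM in Brg1-cKO cells, against 37.8 and 41.4 CPM in control cells. Closest to Lin28b, among 13336 genes at a mean of 1 CPM or more, were Eea1 (0.0374), Limch1 (0.04999) and Zdhhc13 (0.0518). Eea1, an early endosome tether, was at 23.6 and 71.0 CPM in Brg1-cKO cells against 68.9 and 71.3 CPM in control cells, low in replicate 1 alone as Lin28b was. Closest to Hmga2 were Dll1 (0.0379), Pex7 (0.0435) and Bptf (0.0440). Dll1, a Notch ligand of the early nephron, was at 34.9 and 38.8 CPM in Brg1-cKO cells, against 44.4 and 48.3 CPM in control cells. With 4 libraries, such likeness is a description only.

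Markers of several kidney cell types differed between the groups, and the part of cell makeup in the values above was not tested. Nephron progenitor markers summed to 1771 and 1711 CPM in Brg1-cKO cells against 1615 and 1577 CPM in control cells, with 4 of 8 genes higher and 4 lower. Among them Sall1, a progenitor transcription factor, was at 548 and 535 CPM in Brg1-cKO cells against 439 and 441 CPM in control cells. Osr1, a factor of the kidney's precursor tissue, was at 66.0 and 123 CPM in Brg1-cKO cells against 52.7 and 51.6 CPM in control cells. Pax2, given after its values were seen, was at 675 and 667 CPM in Brg1-cKO cells against 598 and 595 CPM in control cells. Pax2 and Sall1 made up most of the sum in every library, so its direction is mainly theirs. Six2, which keeps progenitors undifferentiated, and Meox1, a homeobox gene, both given after their values were seen, lay below the controls. Six2 was at 234 and 126 CPM in Brg1-cKO cells against 242 and 237 CPM in control cells, and Meox1 at 28.9 and 6.17 CPM in Brg1-cKO cells against 38.7 and 33.3 CPM in control cells. Podocyte markers summed to 3563 and 3234 CPM in Brg1-cKO cells against 1068 and 1051 CPM in control cells, with 8 of 8 higher. Podxl, a sialomucin of the foot process, had a log2 fold change of 2.47 (SE 0.16). Tubule markers summed to 132 and 180 CPM in Brg1-cKO cells against 83.7 and 76.7 CPM in control cells, with 3 of 5 tested genes higher, led by the transporters Slc12a1 (log2 fold change 3.83, SE 0.53) and Slc34a1 (3.59, SE 0.59). Lrp2, the endocytic receptor megalin, and Aqp1, a water channel, both given after their values were seen, lay lower in Brg1-cKO. Lrp2 was at 48.6 and 40.3 CPM in Brg1-cKO cells against 67.2 and 61.8 CPM in control cells, and Aqp1 at 0.0699 and 2.52 CPM in Brg1-cKO cells against 2.66 and 4.07 CPM in control cells. Umod, a tubule glycoprotein, was nearly absent from both groups, at 0 and 0 CPM in Brg1-cKO cells against 0.140 and 0 CPM in control cells.

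Ureteric bud markers summed to 167 and 174 CPM in Brg1-cKO cells against 270 and 260 CPM in control cells, with 6 of 7 lower. Of the defining ones, Calb1, a calcium-binding protein, and Wnt9b, the signal that induces nephrons, had no count in Brg1-cKO, and Ret, the receptor of the bud tip, was at 0 and 0.187 CPM in Brg1-cKO cells against 21.0 and 22.2 CPM in control cells. Stromal markers summed to 1333 and 1187 CPM in Brg1-cKO cells against 2697 and 2655 CPM in control cells, with 7 of 7 lower, among them the collagens Col1a1 (log2 fold change -1.13, SE 0.08) and Col3a1 (-1.09, SE 0.09). Endothelial markers summed to 227 and 123 CPM in Brg1-cKO cells against 504 and 510.2 CPM in control cells, with 6 of 6 lower, among them Pecam1, an adhesion molecule (-1.61, SE 0.38), and Tek, the angiopoietin receptor (-1.32, SE 0.31). Immune markers summed to 47.7 and 10.6 CPM in Brg1-cKO cells against 85.4 and 81.0 CPM in control cells, with 5 of 5 lower. These included Ptprc, the pan-leukocyte phosphatase, at 3.77 and 2.99 CPM in Brg1-cKO cells against 15.7 and 11.5 CPM in control cells, and Fcer1g, an Fc receptor chain (log2 fold change -2.72, SE 1.33). Red cell markers were at or near 0 in all 4 libraries. All marker genes had an adjusted p of 0.166 or more with edgeR's quasi-likelihood test.

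**Figure D5:**
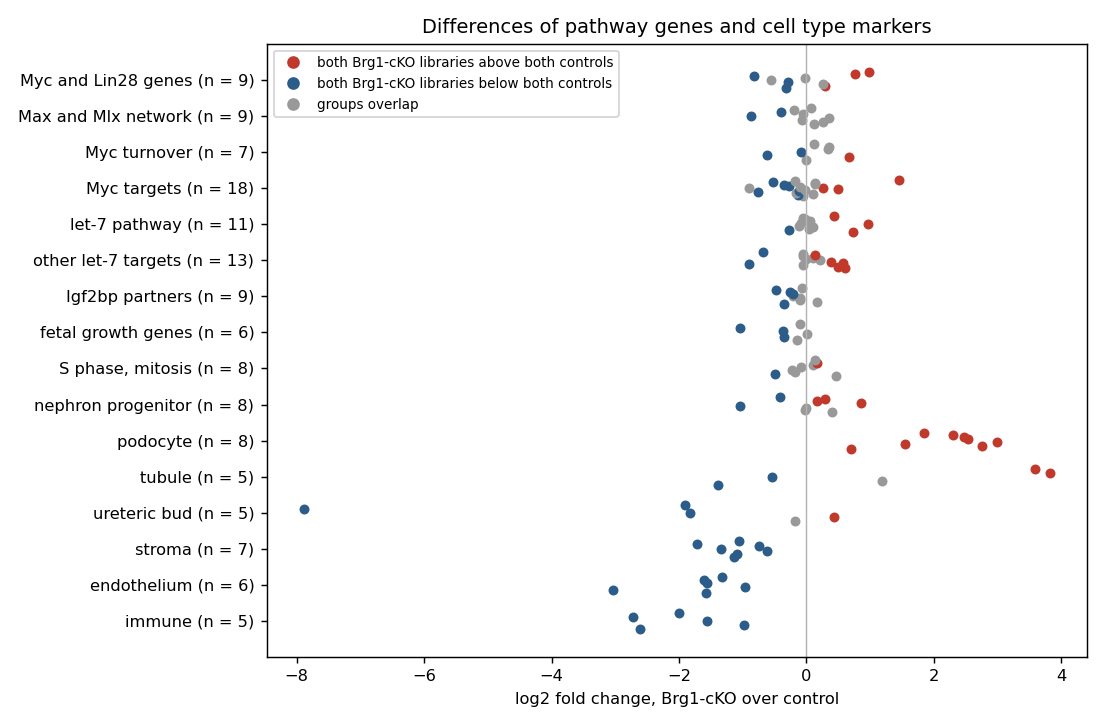
Log2 fold change, Brg1-cKO over control, of each tested gene by list, coloured by whether the libraries of the groups overlap. Lin28a, Calb1 and Wnt9b are left out because they had no count in Brg1-cKO. The point farthest left is Ret, which had counts in 1 Brg1-cKO library only. The medians of the pathway lists run from -0.25 to 0.11, while that of podocyte genes is 2.39 and that of stromal genes -1.09.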

How the data were processed

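The authors deposited whole-number counts of reads per gene for 2 Brg1-cKO and 2 control libraries, not normalized, followed by lines for reads that no gene received. Those lines held 65.5% and 72.1% of reads in Brg1-cKO and 32.4% and 31.8% in control, and no library size or test used them. Per the submitters' processing notes, TopHat, DESeq2 and mm10 were used. Which tool counted the reads, whether it used strand and which annotation it read are not given in the sources used here. If strand was ignored, antisense reads add to a gene.

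Identifiers were matched to GENCODE M21 (mm10), 52489 of 52636 with a symbol. Counts were fitted with edgeR 4.0.16 in R 4.3.3 with group as the only term, TMM scaling, the default filter (minimum count 10), robust dispersions, the quasi-likelihood F test and Benjamini-Hochberg adjustment over all 18172 tested genes at 0.05. The functions were tested on simulated data with the spread of the controls in both groups, which is narrower than that in Brg1-cKO. CPM use TMM-scaled library sizes, and CPM per kilobase divide by merged exon length. Intervals of ratios are exact binomial at 95%.

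The genes and 17 further lists were chosen with earlier results of these data known. Named from each list were genes past the adjusted threshold or, with none, the 2 with the smallest p, and 3 genes each most like Mycn, Lin28b and Hmga2 by Euclidean distance of centred log2 CPM. One gene that the rule names is not reported here. The 15 alternatives were DESeq2 1.42.0, limma-voom (limma 3.58.1) with 1 variance or a variance per group, non-robust dispersions, 3 other scalings, 2 other filters, thinning to the smallest library, a replicate block and each library left out.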

Additional observations from a re-analysis of the deposited data

Results flagged for a closer look

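Reads outside the comparison were more frequent in both Brg1-cKO libraries than in either control. Those that aligned uniquely but matched no counted gene made up 49.5% of uniquely aligned reads in Brg1-cKO replicate 1 and 57.2% in replicate 2, against 16.5% and 15.4% in control. Unaligned reads were 21.3% of the total in Brg1-cKO replicate 1 and 25.5% in replicate 2, against 6.32% and 6.69% in control. They enter no value given for Mycn or the other 9 genes, and their part in the differences was not tested.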

How the results depend on the processing

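Of all genes, 0 passed with all 4 libraries in edgeR and under 7 of the alternatives. The count was 2038 with DESeq2, 327 with limma-voom, 134 with limma-voom when each group had its own variance, and from 16 to 13262 with 1 library left out (12315 without Brg1-cKO replicate 1, 13262 without replicate 2). Of the 10 genes, 1 passed with DESeq2 (Mycn) and from 0 to 7 with 1 library left out. The sign of Max turned with DESeq2 (0.029), RLE scaling (0.028), the filter of 10 CPM (0.0040) and without Brg1-cKO replicate 2 (0.39; range with 1 library left out -0.68 to 0.39), and the cause was not tested. The other 9 genes kept their sign wherever they were tested. Lin28a was not tested under the 10 CPM filter or after thinning.

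Replicate numbers gave no sign of pairing: the correlation of same-numbered deviations over 18172 genes was -0.02. The wide spread between the Brg1-cKO libraries could hide a shared effect, so this value cannot decide whether libraries are paired. With a replicate block 156 genes passed, none of them among the 10, and Mycn had a log2 fold change of 0.98 (adjusted p = 0.170). At these depths, 3 counts are worth 0.210 and 0.280 CPM in Brg1-cKO cells against 0.0838 and 0.0778 CPM in control cells, which limits what the 0 counts of Lin28a can show.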

Other observations

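A few genes around the Myc and Lin28 set, chosen after their values were seen, had uneven levels between the Brg1-cKO libraries. Tert, the catalytic subunit of telomerase and a Myc target, was at 122 and 33.35 CPM in Brg1-cKO cells, against 26.0 and 30.7 CPM in control cells (log2 fold change 1.45, SE 0.70). Only replicate 1 was far above the controls. Gm29202, which shares 43 exon bases with Igf2bp1 on the other strand, was at 14.8 and 0 CPM in Brg1-cKO cells, against 0.587 and 0.389 CPM in control cells. Its counts were high in the same Brg1-cKO library in which Igf2bp1 was high. Tnrc6a, an Argonaute partner, was at 364 and 125 CPM in Brg1-cKO cells, against 261 and 258 CPM in control cells.

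Other genes of the same pathways had nearly the same level in all 4 libraries. Trim71, a let-7 target that acts beside Lin28 in early embryos, was at 47.4 and 49.2 CPM in Brg1-cKO cells, against 49.6 and 43.4 CPM in control cells. Ncl, which encodes nucleolin, was at 1839 and 1926 CPM in Brg1-cKO cells, against 1898 and 1927 CPM in control cells. Tut4, an enzyme that adds uridines to let-7 precursors bound by Lin28, was at 215 and 226 CPM in Brg1-cKO cells, against 231 and 215 CPM in control cells.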
